A study of Saccharomyces cerevisiae with 6 samples.

Results

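The genes described here are the 33 yeast genes of ergosterol synthesis, sterol esterification and sterol uptake, out of 5449 genes measured. They were chosen by name, as the enzymes of the pathway from acetyl-CoA to ergosterol, the electron donors and scaffold that serve them, the transcription factors that set their level, and the proteins that import, transfer or esterify sterols. Each of the 33 was represented by 1 probe set, and none of these probe sets carried a suffix marking hybridisation to several genes. The study labels its Saccharomyces cerevisiae strain as BY4741, a haploid of laboratory use. It grew 10 mL cultures in YPD, a rich medium, and exposed them for 3 hours to 1% DMSO as control, to rapamycin at 200 nM, or to CID 3528206, a coded compound, at 20 µM. Each treatment has 2 Affymetrix arrays. Rapamycin inhibits TOR complex 1, which couples growth to nutrient supply. Rapamycin and the compound were used at different doses, and no source used here says whether DMSO was present with them. Nothing says whether the 2 arrays of a treatment came from separate cultures, so the p-values rest on a spread between samples that may be technical.

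Ergosterol is the main sterol of fungal membranes. Yeast makes it from acetyl-CoA through mevalonate, squalene and lanosterol, and several of the later steps use molecular oxygen and heme. When sterol or oxygen is short, the sterol-sensing activator Upc2 and its relative Ecm22 raise genes of synthesis, and Upc2 and Sut1 raise genes of uptake, which is shut off in aerobic cells. Sterol in excess of need is joined to a fatty acid by the acyltransferases Are1 and Are2 and stored in lipid droplets.

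Values are log2 RMA values as the authors deposited them, differences are on the log2 scale, and errors after ± are limma standard errors with n = 2 arrays per group. A gene was called higher or lower at a limma p under 0.05 after Benjamini-Hochberg adjustment over all 5449 genes, and every adjusted p below is of this kind. Probe sets differ in affinity, so levels are compared between arrays and not between genes. All 33 genes lay above the background, with levels from 7.44 upward, where the 95th percentile of the probe sets for Schizosaccharomyces pombe was at most 4.38. The lowest level, that of HES1 in DMSO replicate 1, was below the 7.63 that the a cell genes given below reached in DMSO. CID 3528206 replicate 1 stood apart: its 3' control probe sets exceeded the 5' ones by 1.69 on average over 7 yeast genes, where the remaining 5 arrays had 0.91 to 1.14. The difference between the 2 compound arrays had a standard deviation of 0.200 over the 33 genes, against 0.113 for DMSO and 0.059 for rapamycin. The strain label was not borne out by its defining genes. The 4 genes deleted in BY4741 lay between 11.15 and 12.11 in the DMSO arrays and 4 genes of alpha cells between 11.95 and 13.47, whereas BY4741 is an a cell, and 6 genes of that mating type lay between 4.89 and 7.63. These markers moved with treatment, though not all passed the test. The alpha cell genes MF(ALPHA)2 and STE3 fell 7.72-fold and 3.59-fold after rapamycin and 12.72-fold and 3.36-fold after the compound. MF(ALPHA)1 and SAG1 did not pass after rapamycin (-0.06 and -0.3, adjusted p = 0.574 and 0.151). Both fell after the compound (adjusted p = 0.0182 and 0.0359). Of the 4 deleted genes, 3 fell after rapamycin and 4 after the compound, where 26.2% and 24.4% of all genes did. Of the 6 a cell genes, 4 rose after rapamycin and 5 after the compound, where 26.5% and 26.1% of all genes did.

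After rapamycin 7 of the 33 genes were higher (21.2%, where 26.5% of all genes were) and 10 lower (30.3%, where 26.2% were). After the compound 13 were higher (39.4%, where 26.1% of all genes were) and 4 lower (12.1%, where 24.4% were). In each of these comparisons 16 did not pass the test. Rapamycin lowered the acyltransferase gene ARE2 2.60-fold, lowered ERG13 and HMG1 of the mevalonate part and the regulator gene UPC2, and raised ERG1, ERG25 and SUT1. The compound raised the sterol importer gene AUS1 2.52-fold, the sterol transfer gene HES1 2.10-fold and the acyltransferase gene ARE1 1.96-fold, and raised ERG1 and ERG25 by about as much as rapamycin did. Set directly against each other, the 2 treatments differed in both acyltransferase genes, in AUS1 and HES1 and in HMG1, all higher after the compound. Most other differences were small, and 8 of the 33 genes passed the test in none of the 3 comparisons. The share of all genes that passed in none was not computed, so this count has no background beside it.

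**Figure D1:**
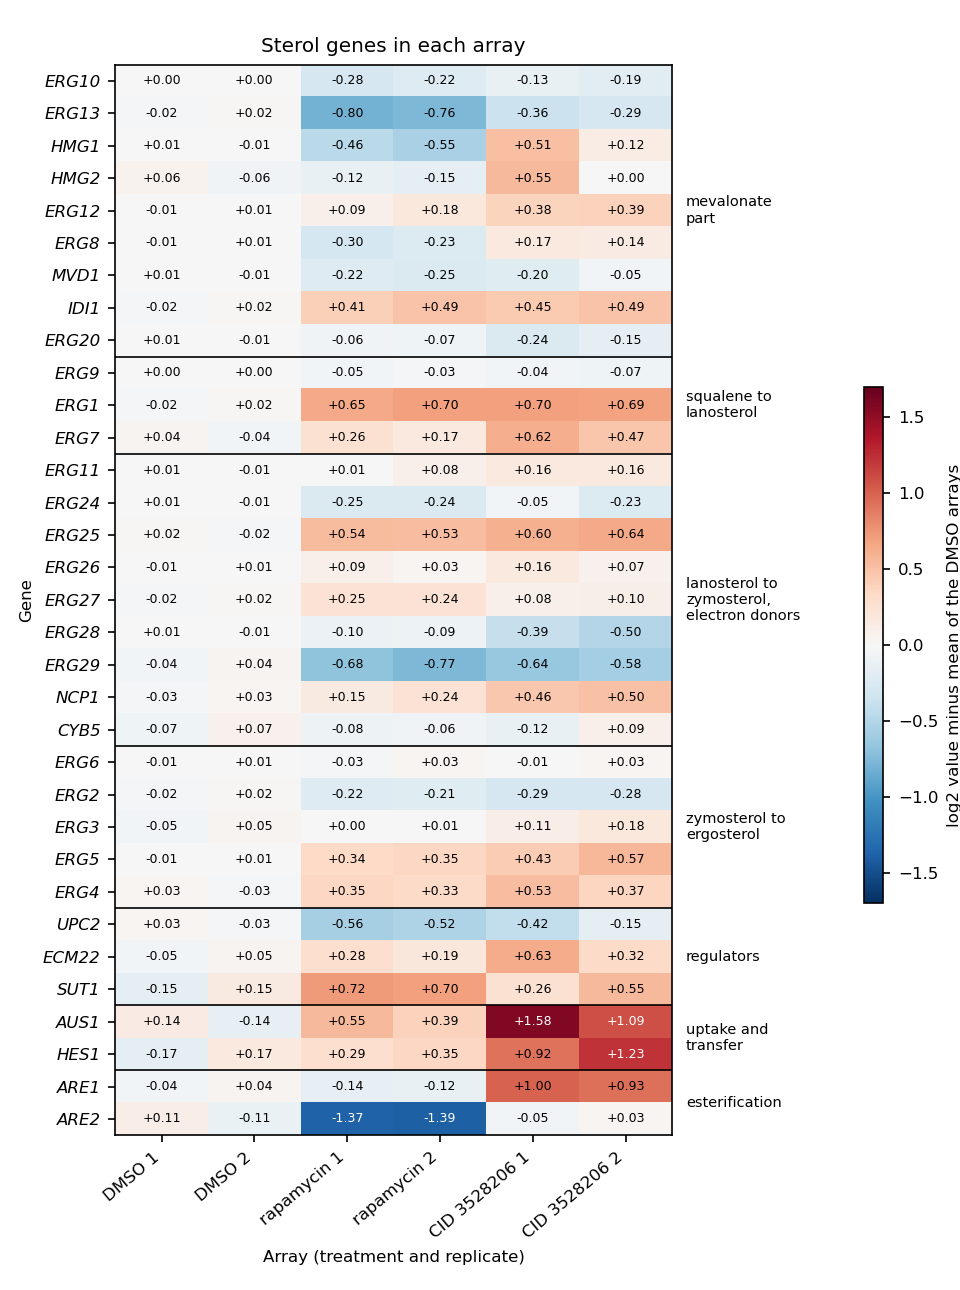
Each row is a gene, ordered by role, and each column an array; colours and numbers give the log2 value minus the mean of the 2 DMSO arrays. The darkest cells are ARE2 in both rapamycin arrays and AUS1, HES1 and ARE1 in both compound arrays, while ERG1 and ERG25 are raised in all 4 treated arrays.

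Rapamycin against DMSO called 17 of the 33 genes (51.5%), against 52.7% of all genes tested. Of these 7 were higher (21.2%, background 26.5%) and 10 lower (30.3%, background 26.2%). The counts fell to 4 higher and 4 lower without any 1 of the DMSO or rapamycin arrays, and 12 were higher without either compound array. The median difference was -0.002 over the 33 genes and -0.02 over all genes. The compound against DMSO also called 17 genes (51.5%, background 50.5%), but 13 were higher (39.4%, background 26.1%) and 4 lower (12.1%, background 24.4%). The median difference was 0.153 over the 33 genes and -0.005 over all genes. Without compound replicate 1 the counts were 13 and 6, without replicate 2 they were 14 and 7, and without either DMSO array 2 genes were lower. In number, then, the pathway was called about as often as genes at large in either comparison, and its members did not all go one way. The compound against rapamycin called 10 of the 33 genes (30.3%, background 18.8%), with 9 higher (27.3%, background 9.32%) and 1 lower (3.03%, background 9.43%), and a median of 0.112 where all genes had -0.003. Without either rapamycin array 2 were higher, and without any 1 of the DMSO or rapamycin arrays 0 were lower in limma, where 1 or 2 had an unadjusted p under 0.05. Without compound replicate 2, 2 were lower. These 3 comparisons share arrays and are not independent of each other. The background shares are those of the fit to all 6 arrays. They were not computed for fits without an array, so those counts cannot be set against genes at large.

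In the mevalonate part, which builds farnesyl diphosphate from acetyl-CoA, rapamycin lowered 5 of 9 genes (55.6%, background 26.2%), raised 1 (11.1%, background 26.5%) and left 3 short of the test. Of the 5 lower calls, only that of ERG13 held in every alternative given below. ERG13, which encodes HMG-CoA synthase, stood at 12.89 and 12.92 in the DMSO arrays, at 12.11 and 12.14 after rapamycin and at 12.55 and 12.61 after the compound. No 2 of the groups overlapped, with rapamycin lowest and the compound between. ERG13 fell 1.72-fold after rapamycin (-0.78 ± 0.07, adjusted p = 0.000276) and 1.25-fold after the compound (-0.33 ± 0.07, adjusted p = 0.00844), and was higher after the compound than after rapamycin by 0.45 ± 0.07 (adjusted p = 0.0101). The last 2 calls each ended without either array of the control side, DMSO or rapamycin, with adjusted p up to 0.0756 and 0.0988.

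HMG1 and HMG2 encode the isozymes of HMG-CoA reductase, the rate-limiting enzyme of the pathway. HMG1 was at 10.81 and 10.78 after DMSO, 10.34 and 10.25 after rapamycin, and 11.31 and 10.91 after the compound. Both compound arrays lay above both DMSO arrays, which lay above both rapamycin arrays, and the compound arrays were far apart. HMG1 fell 1.41-fold after rapamycin (-0.50 ± 0.13, adjusted p = 0.0208) and was 1.76-fold higher after the compound than after rapamycin (0.81 ± 0.13, adjusted p = 0.0138). Its difference between compound and DMSO was 0.31 ± 0.13 and did not pass (adjusted p = 0.0935, 95% interval -0.01 to 0.63). Without compound replicate 1 that difference was 0.12, and without compound replicate 2 it was 0.51 and passed (adjusted p = 0.0014). It also passed with the replicate number as a block (adjusted p = 0.0457). With the 3' to 5' difference of each array as a covariate, the difference between compound and DMSO was 0.11 and did not pass (adjusted p = 0.168). The call after rapamycin failed whenever 1 DMSO or rapamycin array was dropped, with adjusted p up to 0.106. The call between the treatments ended without either rapamycin array, also with adjusted p up to 0.106.

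HMG2 was at 10.87 and 10.76 after DMSO, 10.69 and 10.66 after rapamycin, and 11.37 and 10.81 after the compound. Only the array with the large 3' to 5' difference was high, and the second compound array lay within the DMSO range. The differences of -0.14 ± 0.17, 0.28 ± 0.17 and 0.41 ± 0.17 for rapamycin against DMSO, compound against DMSO and compound against rapamycin did not pass (adjusted p = 0.535, 0.231 and 0.142). Their 95% intervals were -0.56 to 0.29, -0.15 to 0.70 and -0.01 to 0.84. Without compound replicate 2 the differences for the compound were 0.55 and 0.69, both past the test, and without compound replicate 1 they were 0.00 and 0.13. With the 3' to 5' difference of each array as a covariate, the 3 differences were -0.20, -0.01 and 0.18, and the one for rapamycin against DMSO passed (adjusted p = 0.0149). Taken as the difference between both probe sets in the same array, HMG1 relative to HMG2 was 0.33 and 0.39 lower in the rapamycin arrays than in the mean of the DMSO arrays. In the compound arrays the same quantity was -0.04 and 0.12, and in the DMSO arrays it was 0.04 to either side.

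The other mevalonate genes changed by less than 0.5. IDI1, which encodes the isomerase that makes dimethylallyl diphosphate, lay between 12.28 and 12.32 after DMSO, between 12.70 and 12.78 after rapamycin and between 12.74 and 12.79 after the compound. It rose by 0.45 ± 0.07 (adjusted p = 0.00276) and 0.47 ± 0.07 (adjusted p = 0.00258), and the treatments differed by 0.02, with an interval of -0.14 to 0.19. The mevalonate kinase gene ERG12 rose by 0.38 ± 0.07 after the compound (adjusted p = 0.005), while its difference after rapamycin was 0.14 ± 0.07 (adjusted p = 0.129). ERG8, which encodes phosphomevalonate kinase, fell by 0.27 after rapamycin (adjusted p = 0.0159) and was higher after the compound than after rapamycin by 0.42 ± 0.07 (adjusted p = 0.0127). The thiolase gene ERG10 and the decarboxylase gene MVD1 fell by 0.25 and 0.24 after rapamycin (adjusted p = 0.0229 and 0.0414). ERG20, which encodes farnesyl diphosphate synthase, differed by -0.06 after rapamycin and by -0.19 after the compound, neither past the test (adjusted p = 0.458 and 0.0513). The rapamycin calls for ERG8, ERG10 and MVD1 failed whenever 1 DMSO or rapamycin array was dropped (adjusted p up to 0.128, 0.157 and 0.188), and the call between treatments for ERG8 ended without either rapamycin array (up to 0.116).

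The 3 genes from farnesyl diphosphate to lanosterol differed from each other. The squalene epoxidase gene ERG1, whose product is the first oxygen-using enzyme of the pathway and the target of terbinafine, was at 12.79 and 12.83 after DMSO, 13.46 and 13.51 after rapamycin, and 13.51 and 13.50 after the compound. All 4 treated arrays lay above both DMSO arrays and the 2 treatments overlapped. ERG1 rose 1.59-fold after rapamycin (0.67 ± 0.06, adjusted p = 0.000434) and 1.62-fold after the compound (0.69 ± 0.06, adjusted p = 0.000505). The treatments differed by 0.02 with an interval of -0.14 to 0.18. ERG7, which encodes lanosterol synthase, was at 11.24 and 11.17 after DMSO, 11.46 and 11.38 after rapamycin, and 11.83 and 11.67 after the compound. The groups stood apart in that order. ERG7 rose 1.46-fold after the compound (0.55 ± 0.08, adjusted p = 0.00285), while the difference of 0.21 ± 0.08 after rapamycin did not pass (adjusted p = 0.07). It passed in 5 of 18 alternatives, among them without either compound array (adjusted p down to 0.0195) and with the replicate number as a block (adjusted p = 0.0346). The 2 treatments differed by 0.33 ± 0.08 (adjusted p = 0.0415), a call that failed whenever 1 DMSO or rapamycin array was dropped and without compound replicate 1 (adjusted p up to 0.244). The squalene synthase gene ERG9 showed no difference past the test, with all 6 arrays between 12.49 and 12.56.

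Between lanosterol and zymosterol, ERG25 and ERG29 changed most, in opposite directions. ERG25 encodes the sterol methyl oxidase, another oxygen-using enzyme. It was at 13.30 and 13.27 after DMSO, 13.82 and 13.81 after rapamycin, and 13.88 and 13.92 after the compound. All treated arrays were above all DMSO arrays. ERG25 rose 1.45-fold after rapamycin (0.53 ± 0.06, adjusted p = 0.00106) and 1.53-fold after the compound (0.62 ± 0.06, adjusted p = 0.000741), and the treatments differed by 0.08 with an interval of -0.07 to 0.24. ERG29, an essential gene needed for ergosterol synthesis, was at 9.85 and 9.93 after DMSO, 9.21 and 9.12 after rapamycin, and 9.25 and 9.31 after the compound. Here all treated arrays were below all DMSO arrays. ERG29 fell 1.66-fold after rapamycin (-0.73 ± 0.07, adjusted p = 0.000532) and 1.53-fold after the compound (-0.61 ± 0.07, adjusted p = 0.00128), with a difference between treatments of 0.12 and an interval of -0.06 to 0.30.

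ERG28, the scaffold that holds the demethylation enzymes together in the endoplasmic reticulum, was the only member called lower after the compound than after rapamycin. Its arrays lay between 11.46 and 11.48 after DMSO, between 11.37 and 11.38 after rapamycin, and between 10.97 and 11.08 after the compound. It fell 1.36-fold after the compound (-0.45 ± 0.07, adjusted p = 0.00339). The difference after rapamycin was -0.09 ± 0.07 (adjusted p = 0.307), and the treatments differed by -0.35 ± 0.07 (adjusted p = 0.023). NCP1, the reductase that passes electrons to the sterol P450 enzymes, went the other way. It lay between 12.50 and 12.55 after DMSO, between 12.67 and 12.77 after rapamycin and between 12.99 and 13.03 after the compound. NCP1 rose 1.40-fold after the compound (0.48 ± 0.07, adjusted p = 0.00266) and was higher than after rapamycin by 0.29 ± 0.07 (adjusted p = 0.0417). Its difference of 0.20 ± 0.07 after rapamycin did not pass (adjusted p = 0.0592). It passed in 7 of 18 alternatives, among them without either compound array (adjusted p down to 0.0281) and with the replicate number as a block (adjusted p = 0.0424). The calls between treatments for ERG28 and NCP1 failed whenever 1 DMSO or rapamycin array was dropped (adjusted p up to 0.167 and 0.244).

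The remaining genes of this stretch moved little. ERG27, which encodes the keto reductase, rose by 0.25 after rapamycin (adjusted p = 0.0197), and ERG24, which encodes the sterol reductase after demethylation, fell by 0.25 (adjusted p = 0.0416). Both calls failed whenever 1 DMSO or rapamycin array was dropped (adjusted p up to 0.137 and 0.174). After the compound their differences were 0.09 and -0.14 and did not pass. ERG11, the lanosterol demethylase that azole drugs inhibit, differed by 0.05 ± 0.07 after rapamycin and by 0.16 ± 0.07 after the compound (adjusted p = 0.56 and 0.0873), with intervals of -0.11 to 0.21 and of 0.00 to 0.32. The dehydrogenase gene ERG26 and the electron carrier gene CYB5 differed by 0.12 or less in every comparison.

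From zymosterol to ergosterol, 2 of 5 genes rose and 1 fell after each treatment, with no call between the treatments. This was 60.0% called, where 52.7% of all genes were called after rapamycin and 50.5% after the compound. ERG5, which encodes a desaturase of the P450 family, was at 11.23 and 11.26 after DMSO, 11.59 in both rapamycin arrays, and 11.68 and 11.82 after the compound. The groups stood apart, with the compound highest. ERG5 rose 1.27-fold after rapamycin (0.34 ± 0.07, adjusted p = 0.0105) and 1.41-fold after the compound (0.50 ± 0.07, adjusted p = 0.0028). ERG4, whose product makes ergosterol in the last step, rose by 0.34 ± 0.08 (adjusted p = 0.0134) and 0.45 ± 0.08 (adjusted p = 0.00506). ERG2, which encodes the sterol isomerase, fell by 0.21 and by 0.28 (adjusted p = 0.031 and 0.0123). Its call after the compound ended without either DMSO array (adjusted p up to 0.105). The rapamycin calls for ERG5, ERG4 and ERG2 failed whenever 1 DMSO or rapamycin array was dropped (adjusted p up to 0.0758, 0.0937 and 0.191). The methyltransferase gene ERG6 and the desaturase gene ERG3 passed in no comparison, and ERG6 stayed between 13.18 and 13.24 in all 6 arrays.

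**Figure D2:**
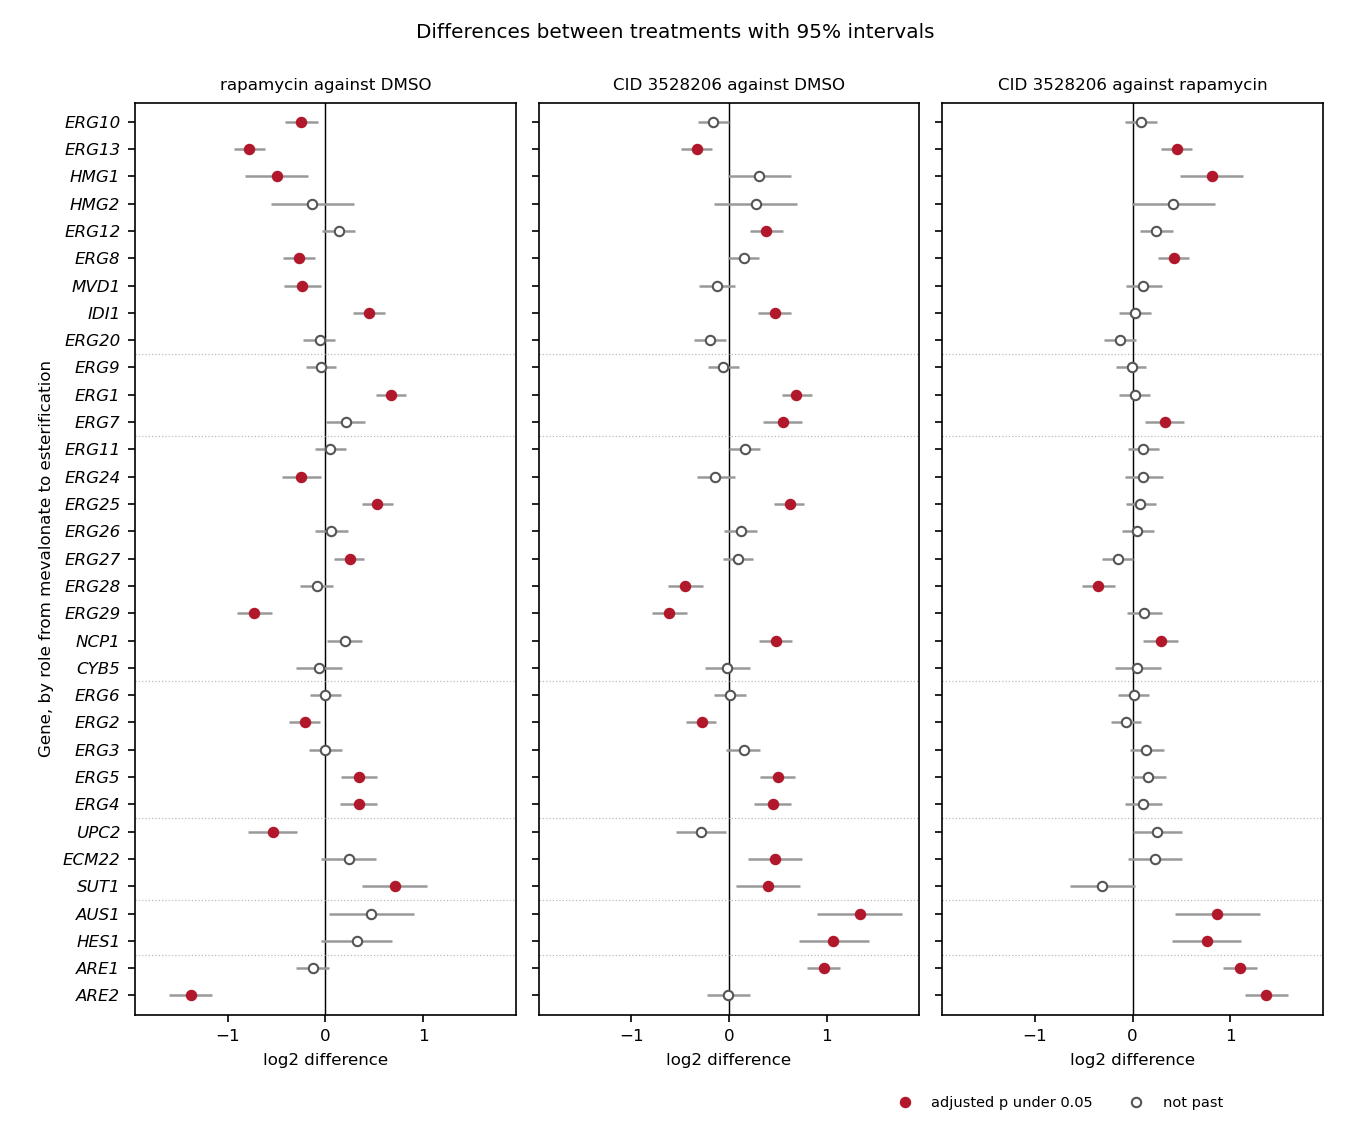
Points give the log2 difference of each gene in the 3 comparisons and bars its 95% interval from limma; filled points passed the test. ERG1 and ERG25 sit to the right of 0 in both comparisons with DMSO and near 0 between the treatments, while ARE1 and ARE2 are the 2 largest differences between the treatments.

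The 3 regulator genes did not move together. UPC2 was at 8.94 and 8.87 after DMSO, 8.35 and 8.38 after rapamycin, and 8.48 and 8.76 after the compound. All treated arrays lay below both DMSO arrays, the compound arrays unevenly so. UPC2 fell 1.45-fold after rapamycin (-0.54 ± 0.10, adjusted p = 0.0063). The difference after the compound was -0.29 ± 0.10 and did not pass (adjusted p = 0.0602), and it passed in 4 of 17 alternatives: without compound replicate 2 at -0.42 (adjusted p = 0.00246), with the replicate number as a block (adjusted p = 0.0486), and with the arrays quantile normalized or centred. Without compound replicate 1 it was -0.15.

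ECM22, the paralogue of UPC2, was at 9.29 and 9.38 after DMSO, 9.62 and 9.53 after rapamycin, and 9.96 and 9.65 after the compound. It was higher in every treated array than in every DMSO array, opposite to UPC2. ECM22 rose 1.39-fold after the compound (0.47 ± 0.11, adjusted p = 0.0164), a call that ended without either DMSO array (adjusted p up to 0.0932), and the difference of 0.24 ± 0.11 after rapamycin did not pass (adjusted p = 0.129). The latter passed in 4 of 18 alternatives, among them without either compound array (adjusted p down to 0.0165). Without compound replicate 1 the compound's difference was 0.32 and still passed. In the same array, UPC2 relative to ECM22 lay 0.84 and 0.71 below the DMSO mean after rapamycin and 1.05 and 0.46 below it after the compound, where the DMSO arrays themselves lay 0.08 to either side. This quantity was not tested.

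SUT1, whose product favours sterol uptake, was at 8.48 and 8.78 after DMSO, 9.35 and 9.33 after rapamycin, and 8.89 and 9.18 after the compound. Rapamycin arrays were highest and DMSO arrays lowest, with no overlap. SUT1 rose 1.64-fold after rapamycin (0.71 ± 0.13, adjusted p = 0.0061) and 1.32-fold after the compound (0.40 ± 0.13, adjusted p = 0.0477). The compound call ended in 8 of 17 alternatives, among them without DMSO replicate 1, either rapamycin array or compound replicate 2. Quantile normalization of the tested genes, testing all probe sets and using the 4 arrays of the comparison alone ended it too. Over the alternatives the difference ranged from 0.26 to 0.58. The difference between treatments, -0.31 ± 0.13, did not pass (adjusted p = 0.152, interval -0.64 to 0.02).

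Both genes of uptake and transfer rose after the compound. AUS1 encodes an ABC transporter that imports sterol when cells lack oxygen. Its level was 10.02 and 9.74 after DMSO, 10.43 and 10.28 after rapamycin, and 11.46 and 10.97 after the compound. The 3 groups did not overlap, although both the DMSO and the compound arrays were spread. AUS1 rose 2.52-fold after the compound (1.34 ± 0.18, adjusted p = 0.00184), and without compound replicate 1 the rise was 2.13-fold (adjusted p = 0.000949). After rapamycin the difference was 0.47 ± 0.18 and did not pass (adjusted p = 0.067, interval 0.04 to 0.91), but it passed in 6 of 18 alternatives, among them without either compound array (adjusted p down to 0.00783) and with the replicate number as a block (adjusted p = 0.00753). AUS1 was 1.82-fold higher after the compound than after rapamycin (0.86 ± 0.18, adjusted p = 0.0257), or 1.54-fold without compound replicate 1 (adjusted p = 0.0212). The call between the treatments failed whenever 1 DMSO or rapamycin array was dropped, with adjusted p up to 0.16.

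HES1, also known as OSH5, encodes a member of the oxysterol-binding protein family. It was at 7.44 and 7.78 after DMSO, 7.90 and 7.95 after rapamycin, and 8.53 and 8.84 after the compound. The groups again stood apart in the order DMSO, rapamycin, compound. HES1 rose 2.10-fold after the compound (1.07 ± 0.15, adjusted p = 0.002), and 2.35-fold without compound replicate 1. The difference after rapamycin was 0.32 ± 0.15 (adjusted p = 0.113, interval -0.04 to 0.68) and passed in 5 of 17 alternatives, among them without either compound array (adjusted p down to 0.0432) and with the replicate block (adjusted p = 0.0271). The compound exceeded rapamycin by 0.76 ± 0.15 (adjusted p = 0.0214). That last call ended without either rapamycin array (adjusted p up to 0.131). In AUS1 compound replicate 1 was the higher array, and in HES1 it was replicate 2.

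The esterification genes gave the largest differences between the treatments. ARE1 and ARE2 encode the acyl-CoA:sterol acyltransferases, of which Are2 is known to do most of the work in aerobic cells and Are1 to gain weight when heme or oxygen is short. ARE1 was at 9.98 and 10.05 after DMSO, 9.88 and 9.89 after rapamycin, and 11.02 and 10.94 after the compound. Both compound arrays stood well above the other 4. ARE1 rose 1.96-fold after the compound (0.97 ± 0.07, adjusted p = 0.000195), while the difference of -0.13 ± 0.07 after rapamycin did not pass (adjusted p = 0.158, interval -0.30 to 0.04). It was 2.14-fold higher after the compound than after rapamycin (1.10 ± 0.07, adjusted p = 0.00256).

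ARE2 was at 10.07 and 9.85 after DMSO, 8.59 and 8.57 after rapamycin, and 9.92 and 9.99 after the compound. Both rapamycin arrays stood well below the other 4, and both compound arrays lay within the DMSO range. ARE2 fell 2.60-fold after rapamycin (-1.38 ± 0.09, adjusted p = 0.000112). After the compound the difference was -0.01 ± 0.09 (adjusted p = 0.942), with an interval of -0.23 to 0.21. ARE2 was 2.59-fold higher after the compound than after rapamycin (1.37 ± 0.09, adjusted p = 0.00259). In the same array, ARE1 relative to ARE2 lay 1.23 and 1.27 above the DMSO mean after rapamycin and 1.05 and 0.90 above it after the compound, where the DMSO arrays lay 0.15 to either side. ARE1 was thus high relative to ARE2 in all 4 treated arrays, with a lower ARE2 after rapamycin and a higher ARE1 after the compound; both treatments are set against the same DMSO arrays. These 2 genes were the only members whose calls between the treatments held in every alternative in which they were tested.

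**Figure D3:**
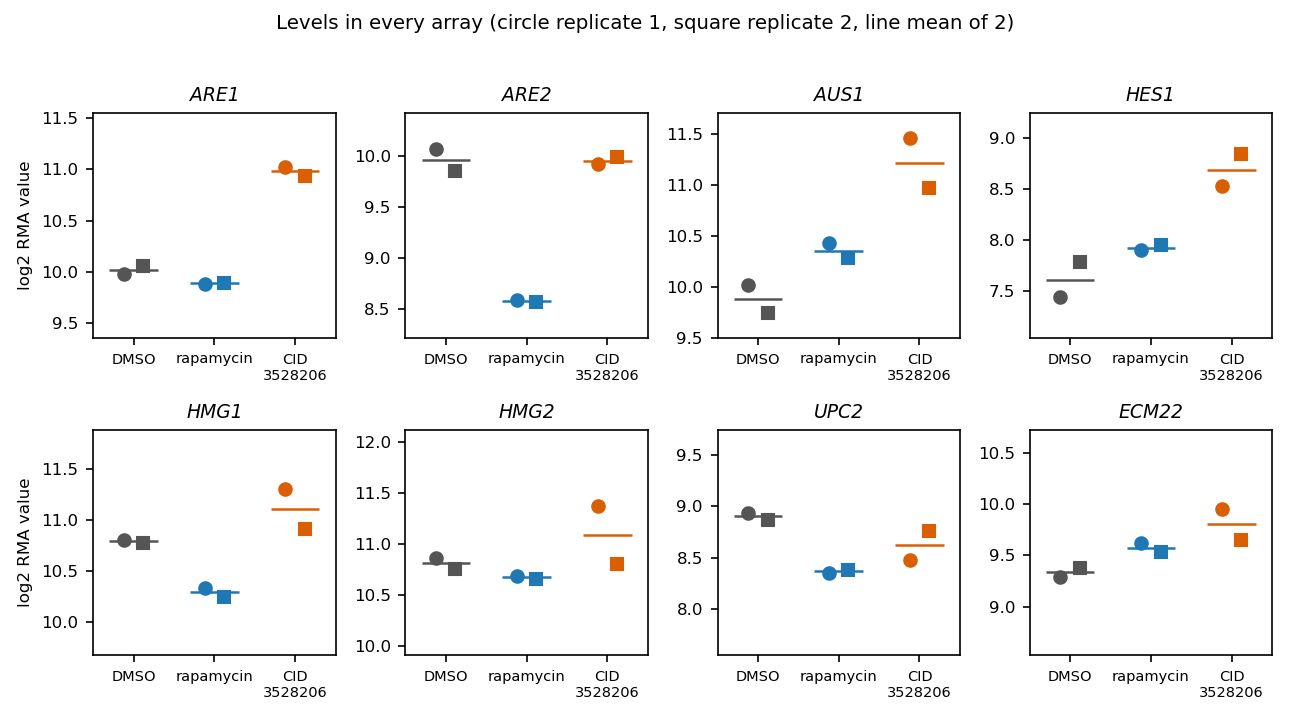
Log2 RMA values of 8 genes in every array, with the mean of the 2 arrays of a treatment as a line; each panel spans the same height on its own level. ARE2 is low in the rapamycin arrays alone and ARE1 high in the compound arrays alone, and the compound arrays of HMG1, HMG2 and AUS1 are far apart.

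Other genes, 53 in 8 lists of roles in sterol metabolism or related to it, were set beside the pathway. The lists also hold genes of other lipids, of wall proteins and of a corepressor, so their shares are not those of sterol genes alone. Of these 14 were higher and 20 lower after rapamycin (64.2% called, background 52.7%), 17 were higher and 11 lower after the compound (52.8%, background 50.5%), and 6 were higher and 3 lower after the compound than after rapamycin (17.0%, background 18.8%).

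Among 7 mannoprotein and importer genes known to be induced without oxygen, 6 rose after the compound (85.7%, background 26.1%) and 0 fell, with 1 not past the test, TIR2. After rapamycin 2 rose (28.6%, background 26.5%), 0 fell and 5 did not pass. The wall protein gene TIR4 rose 2.46-fold after rapamycin (1.30 ± 0.12) and 2.66-fold after the compound (1.41 ± 0.12), and DAN1 rose 1.88-fold after the compound (0.91 ± 0.18, adjusted p = 0.00806). PDR11, which encodes the sterol importer related to AUS1, rose 1.47-fold after rapamycin (0.55 ± 0.08) and 1.56-fold after the compound (0.64 ± 0.08). TIR3 and TIR1 were higher after the compound than after rapamycin by 0.55 and 0.45 (adjusted p = 0.0157 and 0.0255), and neither call held without one of the rapamycin arrays or, for TIR1, one of the DMSO arrays (adjusted p up to 0.119 and 0.165).

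Of 6 regulators of sterol and oxygen genes, 1 rose and 3 fell after rapamycin (66.7% called, background 52.7%), and 1 rose and 2 fell after the compound (3 of 6 called, background 50.5%). SUT2, the paralogue of SUT1, fell 1.81-fold after rapamycin (-0.85 ± 0.09) and 2.11-fold after the compound (-1.08 ± 0.09), opposite to SUT1. CYC8, a subunit of the Cyc8-Tup1 corepressor, fell by 0.61 and 0.46. TUP1 fell by 0.48 after rapamycin (adjusted p = 0.00204), and its difference of -0.13 after the compound did not pass (adjusted p = 0.159). HAP1, whose product responds to heme, rose by 0.34 after rapamycin and 0.59 after the compound, and the rapamycin call failed whenever 1 DMSO or rapamycin array was dropped (adjusted p up to 0.179). TUP1 was higher after the compound than after rapamycin by 0.35 (adjusted p = 0.0214), a call that failed whenever 1 DMSO or rapamycin array was dropped (up to 0.165).

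A further list held genes that release or modify stored sterol. YEH1, which encodes a sterol ester hydrolase, rose 3.39-fold after rapamycin (1.76 ± 0.08, adjusted p = 3.91e-05) and 2.97-fold after the compound (1.57 ± 0.08, adjusted p = 7.61e-05). ATF2, the sterol acetyltransferase gene, fell by 0.83 and 0.54, and the hydrolase gene TGL1 by 0.36 and 0.31. In all, 1 of these 5 genes rose and 3 fell after rapamycin (80.0% called, background 52.7%), and 1 rose and 2 fell after the compound (60.0%, background 50.5%). The hydrolase gene YEH2 was higher after the compound than after rapamycin by 0.37 (adjusted p = 0.0176). The calls for TGL1 in both comparisons, for ATF2 after the compound and for YEH2 ended without some single arrays, with adjusted p up to 0.0723, 0.117, 0.0854 and 0.148.

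Among 17 genes for sterol transfer proteins, 5 rose and 5 fell after rapamycin (58.8% called, background 52.7%), and 4 rose and 2 fell after the compound (35.3%, background 50.5%). PRY1 and PRY2, which encode secreted sterol-binding proteins, rose 2.98-fold and 2.59-fold after rapamycin and 2.35-fold and 2.12-fold after the compound. OSH2 and OSH6 of the oxysterol-binding family, to which HES1 belongs, fell instead, OSH2 by 1.03 and 0.89 and OSH6 by 0.57 and 0.61. Between the treatments, KES1 was higher after the compound by 0.26 (adjusted p = 0.0494). NPC2 and PRY1 were lower after the compound, with differences of -0.40 and -0.34 (adjusted p = 0.0234 and 0.0302). These calls between the treatments, for KES1, NPC2 and PRY1, failed whenever 1 DMSO or rapamycin array was dropped.

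Of 6 genes whose products bear on the stability of HMG-CoA reductase or of the sterol P450 enzymes, 2 rose and 4 fell after rapamycin (100.0% called, background 52.7%), and 2 rose and 1 fell after the compound (3 of 6 called, background 50.5%). NSG1 and NSG2 encode relatives of mammalian INSIG that bind the reductase. NSG1 fell by 0.65 after rapamycin (adjusted p = 0.00246) and NSG2 rose by 0.54 (adjusted p = 0.0011). UBC7, a ubiquitin-conjugating enzyme of the reductase's degradation, fell by 0.55 and 0.47, and DAP1, a heme-binding partner of Erg11, rose by 0.43 and 0.33. NSG2 rose by 0.20 after the compound (adjusted p = 0.0435), and between the treatments NSG1 was 0.42 higher and NSG2 0.34 lower after the compound (adjusted p = 0.0348 and 0.0211). The calls for DAP1, for NSG2 after the compound and for both genes between the treatments ended without some single arrays (adjusted p up to 0.204).

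**Figure D4:**
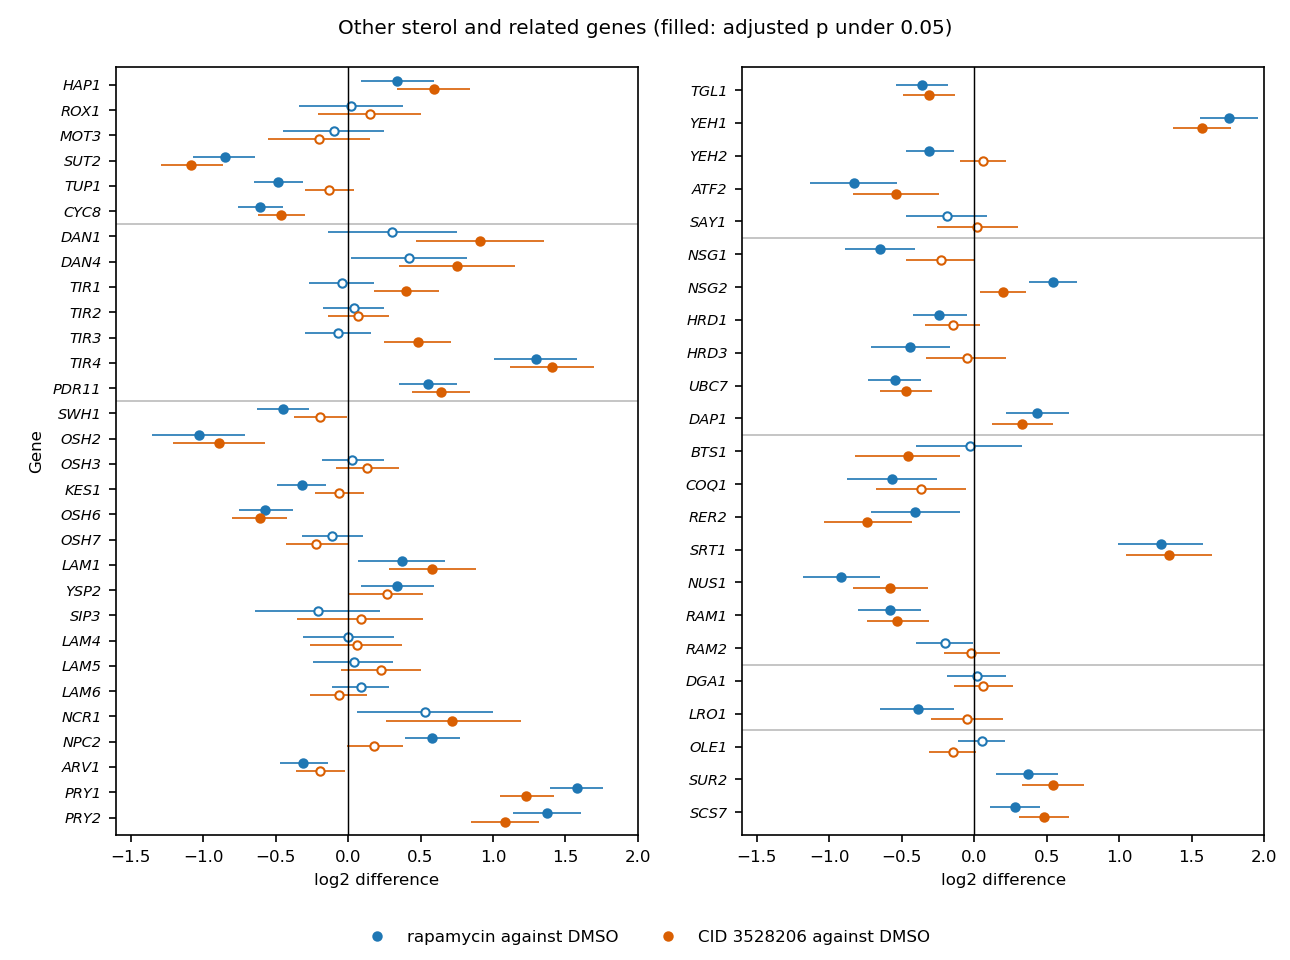
Log2 differences and 95% intervals of the 53 other genes, grouped by list between grey lines, for rapamycin and for the compound against the same DMSO arrays; filled points passed the test. YEH1, PRY1, PRY2, SRT1 and TIR4 lie farthest to the right in both comparisons, and OSH2 and SUT2 lie at or below -0.85 in both.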

How the data were processed

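The authors deposited a log2 value for every probe set and array. They were made with RMA per the submitters' processing notes, a method that subtracts background, equalises array distributions and combines the probes of a set; no source used here gives its software or settings. Of 10928 probe sets, 5498 could be tied to 1 S. cerevisiae gene, 5449 genes in all. Where several probe sets shared a gene (47 genes), the brightest by mean stood for it. Names came from the platform's probe table, updated for 12 probe sets through RefSeq (assembly R64). Comparisons used limma 3.58.1 (R 4.3.3), with lmFit and eBayes applied to all 6 arrays together, 1 mean per group, a shared spread and two-sided tests. The number of arrays limits the precision. The members, the lists of other genes and the 18 alternatives were chosen with earlier results of these data known. All 33 members are named; values in every array are given for those past the test by 0.5 or more and for the paralogue pairs. Up to 2 rises and 2 falls are named per other list and comparison, and TUP1 is also given against DMSO. The fit was tested on simulated data. Groups of 2 were not tested for single outlying arrays. No sequences are printed.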

Additional observations from a re-analysis of the deposited data

How the results depend on the processing

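Alternatives changed 1 choice at a time. The share of all genes called was computed for the main fit only. Whether the counts below moved more than those of genes at large was therefore not tested. Calls past the test in every alternative in which the gene was tested numbered 8 of 17 after rapamycin (ERG13, IDI1, ERG1, ERG25, ERG29, UPC2, SUT1 and ARE2), 13 of 17 after the compound and 2 of 10 between the treatments. ERG29, UPC2, SUT1 and HES1 dropped out when the third of genes lowest in mean was removed. Leaving out 1 array at a time gave 4 to 12 genes higher and 4 to 10 lower after rapamycin, 11 to 14 and 2 to 7 after the compound, and 2 to 13 and 0 to 2 between the treatments; such fits have fewer arrays. The medians then ranged from -0.043 to 0.008, from 0.115 to 0.163 and from 0.112 to 0.134. After rapamycin the count of higher genes was 12 with the 4 arrays of the comparison alone, 11 with the replicate number as a block, 13 with the 3' to 5' difference as a covariate and 4 at an adjusted p under 0.01, and that of lower genes was 5 with all probe sets tested and 4 at the stricter threshold. Between the treatments, 2 genes were higher at the stricter threshold. The 1 gene lower there (ERG28) became 0 in limma with all probe sets tested, with the 4 arrays alone and at the stricter threshold, where 1, 2 and 1 genes had an unadjusted p under 0.05. Quantile normalization of the tested genes moved the medians to 0.015, 0.135 and 0.121, centring arrays moved the first 2 to -0.014 and 0.143, and the covariate moved those of the compound to 0.108 and 0.141. The causes of these shifts were not tested. Differences between replicates correlated between groups by 0.25 to 0.43 over genes, but no label says what the replicate numbers share. Beside the block values given with ERG7, NCP1, AUS1, HES1, HMG1 and UPC2, the block brought ERG12 past the test between the treatments (adjusted p = 0.0433) and moved no other call of a member. No named gene with a call changed direction.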

Other observations

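Branches that leave the pathway at farnesyl diphosphate changed as well. Of 7 genes that use it for other products, 1 rose and 4 fell after rapamycin, and 1 rose and 4 fell after the compound (71.4% called in each, where 52.7% and 50.5% of all genes were). SRT1 and RER2 encode alternative subunits of the enzyme that makes dolichol, the lipid carrier of glycosylation, and NUS1 encodes their partner. SRT1 was at 7.13 and 6.90 after DMSO, 8.30 in both rapamycin arrays, and 8.22 and 8.50 after the compound, so that all treated arrays were higher. It rose 2.44-fold after rapamycin (1.29 ± 0.12, adjusted p = 0.000414) and 2.53-fold after the compound (1.34 ± 0.12, adjusted p = 0.000461). NUS1 fell 1.89-fold (-0.92 ± 0.11) and 1.50-fold (-0.58 ± 0.11). RER2 fell 1.67-fold after the compound (-0.74 ± 0.13, adjusted p = 0.00447), and the farnesyltransferase gene RAM1 fell 1.50-fold after rapamycin (-0.58 ± 0.09). Neither fall was particular to that treatment. The means after DMSO, rapamycin and the compound were 9.97, 9.57 and 9.24 for RER2 and 10.07, 9.49 and 9.54 for RAM1. None of the 7 passed the test between the treatments in limma after adjustment, while 3 had an unadjusted p under 0.05 (BTS1, RER2 and NUS1).

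Oxygen-using enzymes of other membrane lipids were measured too. The sphingolipid hydroxylase genes SUR2 and SCS7 rose by 0.37 and 0.28 after rapamycin and by 0.54 and 0.48 after the compound. The rapamycin calls ended without some single arrays, with adjusted p up to 0.109 and 0.116. The fatty acid desaturase gene OLE1, also oxygen-using, did not pass in any of the 3 comparisons. Of the acyltransferases that make triacylglycerol, the other lipid of lipid droplets, LRO1 fell by 0.39 after rapamycin (adjusted p = 0.0205), a call that failed whenever 1 DMSO or rapamycin array was dropped (up to 0.116), and DGA1 passed in no comparison.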
